A study of Mus musculus with 12 samples.

Results

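Chromatin accessibility in mouse hepatocytes was followed around 8 genes of liver glucose production: Pcx, Mdh1, Got1, Pck1, Fbp1, G6pc, Slc37a4 and Ldha. A peak, a stretch of open chromatin called from the reads, was counted for a gene when the deposited annotation named that gene as the nearest. By this rule 97 of the 52530 peaks of the series belonged to the 8 genes: 22 to Pcx, 15 each to Pck1, G6pc and Ldha, 14 to Fbp1, 8 to Got1, 6 to Mdh1 and 2 to Slc37a4. The nuclei came from female HEP-INTACT mice, whose hepatocyte nuclei carry a tag by which they are pulled out of a liver homogenate. In the fasted mice food was withdrawn at ZT12, when the active phase begins, for 16 h; the fed mice had food ad libitum until the same hour. Each of the 6 mice, 3 fasted and 3 fed, gave a library from frozen liver and a library from fresh liver, which makes 12 libraries in 4 groups of 3. Neither the age of the mice nor the promoter behind the tag is given in the sources used here. Within each feeding state the table marks the mice by the letters A, B and C, which match no mouse number in the labels.

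In ATAC-seq a transposase cuts open chromatin, so reads pile up where DNA is accessible. Values are normalized reads, that is, reads in a window listed as 200 bp long, divided by the authors' size factor for that library. Since every window has the same length, levels of different peaks can be set side by side. The libraries held 3692152 to 14506057 reads in peaks. Of 10 hepatocyte marker genes, 9 had a peak within 1 kb of their start (all but Ttr). No marker gene of macrophages, endothelium or lymphocytes had a peak there, and 1 of 6 stellate cell and 1 of 5 bile duct markers did. At any distance, all 10 hepatocyte markers had peaks, 106 in total. So did 5 of 7 endothelial markers, with 13 peaks, and 2 of 6 macrophage, 2 of 6 stellate cell, 3 of 5 bile duct and 1 of 5 lymphocyte markers.

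During a fast the liver makes glucose from lactate, alanine and glycerol. Pyruvate carboxylase (Pcx) turns pyruvate into oxaloacetate in the mitochondrion, the malate and aspartate shuttles (Mdh1, Got1) carry it out, and phosphoenolpyruvate carboxykinase (Pck1) commits it to the pathway. Fructose-1,6-bisphosphatase (Fbp1) acts further up, the transporter Slc37a4 brings glucose-6-phosphate into the endoplasmic reticulum, and glucose-6-phosphatase (G6pc) releases glucose there. Lactate dehydrogenase A (Ldha) interconverts lactate and pyruvate. Glucagon, through cAMP and CREB, glucocorticoids and FOXO1 are textbook activators of Pck1 and G6pc in the fasted liver, and insulin represses both.

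The promoters of Pck1, Ldha and G6pc are shown because the peaks over the first 2 rose with fasting and all 3 were higher in frozen livers. Each runs from 250 bases before to 50 bases after a RefSeq start on GRCm38.p6, the assembly that mm10 names, on the plus strand. Capitals mark TTACGTCA and TGACGTCA, forms of the cAMP response element, and CACGTG, the E-box.
Pck1, chr2:173152823-173153122: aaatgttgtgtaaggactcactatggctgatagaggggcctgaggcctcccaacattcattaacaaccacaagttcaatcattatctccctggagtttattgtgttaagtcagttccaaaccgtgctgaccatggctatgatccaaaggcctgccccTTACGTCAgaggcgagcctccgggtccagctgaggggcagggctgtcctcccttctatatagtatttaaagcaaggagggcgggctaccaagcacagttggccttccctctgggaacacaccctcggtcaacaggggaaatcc
Ldha, chr7:46845554-46845853: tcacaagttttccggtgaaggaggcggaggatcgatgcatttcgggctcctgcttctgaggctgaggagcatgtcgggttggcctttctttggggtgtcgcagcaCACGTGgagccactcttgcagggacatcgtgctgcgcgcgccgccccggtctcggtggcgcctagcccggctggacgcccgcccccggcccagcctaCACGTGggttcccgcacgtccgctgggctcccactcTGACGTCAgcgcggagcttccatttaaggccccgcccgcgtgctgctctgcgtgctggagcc
G6pc, chr11:101367466-101367765: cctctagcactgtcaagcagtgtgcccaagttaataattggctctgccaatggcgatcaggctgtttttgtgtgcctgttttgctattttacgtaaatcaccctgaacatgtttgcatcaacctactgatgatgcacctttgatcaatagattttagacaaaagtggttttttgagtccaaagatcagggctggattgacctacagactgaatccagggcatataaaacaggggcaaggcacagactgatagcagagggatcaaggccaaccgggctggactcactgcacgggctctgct
TTACGTCA began 93 bases before the Pck1 start and was in 0.499% of the 32851 RefSeq promoters of the same length, searched on both strands. TGACGTCA, held by 1.79% of them, began 12 bases before the Ldha start. CACGTG, held by 7.15%, began 145 and 48 bases before the Ldha start and 248 bases before the upstream start of Pcx, and overlapped neither of the other motifs. GTAAACA (forkhead, 3.65%), CAAAGTCCA (HNF4, 0.475%), TTGCGCAA (C/EBP, 0.183%) and the full palindrome of the glucocorticoid response element (0.00913%) were not among the letters of the 12 windows of the 8 genes.

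Fasting changed accessibility around 7 of the 8 genes, all but Got1, in both directions. On the mean log2 value of each mouse's libraries, 18 of the 97 peaks rose and 14 fell (limma, Benjamini-Hochberg adjusted p under 0.05 over all 52530 peaks), where 16.5% of all peaks rose and 18.1% fell, 34.6% together. The 97 peaks were thus called about as often as any peak, and their median log2 difference was 0.10 against 0.05 for all peaks. The split depends on the scaling: with libraries scaled to peaks near gene starts, which shifts the median of all peaks by -0.12, 9 member peaks rose and 19 fell. Of all 52530 peaks 4071 rose and 12822 fell at that scaling. Without fed mouse B 9 rose and 7 fell (5023 and 6477 of all peaks), and without fasted mouse A 11 rose and 9 fell (4939 and 7472). Without fed mouse A 18 rose and 8 fell (5435 and 6924 of all peaks), and without fed mouse C 12 rose and 10 fell (6990 and 7696). A lower value may mean that fewer nuclei had the site open or that it was less open in each, and bulk libraries cannot tell these apart.

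The direction differed by gene. All 7 called Ldha peaks and all 3 called Pck1 peaks rose, and all 5 called Fbp1 peaks and all 3 called Mdh1 peaks fell. At Ldha this did not hold in every alternative. The peak 15947 bp before its start was called lower with scaling to peaks near starts (log2 difference -0.42, limma adjusted p = 0.0488). The peak 2405 bp past the Ldha start was called lower without fasted mouse B (-0.47, 0.0368). Pcx had 5 peaks that rose and 4 that fell, G6pc had 2 of each, and 1 of the 2 Slc37a4 peaks rose. None of the 8 Got1 peaks was called, and 1 had an unadjusted p under 0.05. By location, 10 of the 34 intergenic peaks rose and 4 fell, against 16.8% and 23.4% of all intergenic peaks. Of the 37 intron peaks 3 rose and 9 fell, against 14.3% and 24.2% of all intron peaks, so that the share of falls in introns was about that of any intron peak. Fasted and fed libraries did not overlap at 4 peaks that were higher and 6 that were lower in fasted mice, which held for 5.16% and 7.79% of all peaks. For 15 of the 32 calls, 8 higher and 7 lower, all of the 11 or 12 alternative settings that refitted the peak gave the same call. These lay beyond 1 kb of a start with 1 exception, the Pcx peak 361 bp before its start. How many calls among all peaks held in this way was not counted.

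**Figure D1:**
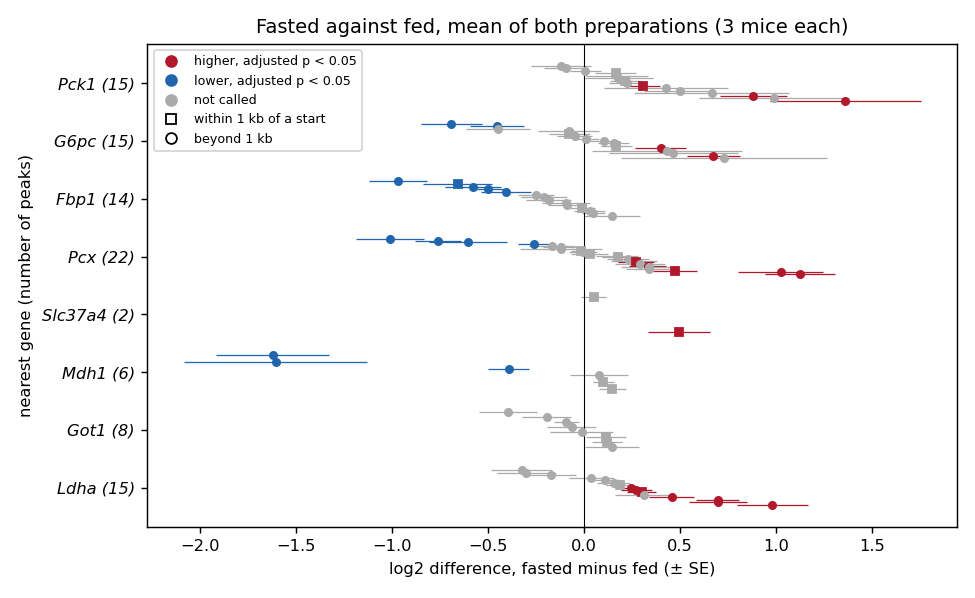
Log2 difference between fasted and fed mice (x axis, ± SE) at each of the 97 peaks, grouped by nearest gene, with squares for peaks within 1 kb of a start and circles for the others. Red peaks rose and blue peaks fell with an adjusted p under 0.05; the called Ldha and Pck1 peaks lie right of 0, the called Fbp1 and Mdh1 peaks left of 0, and Pcx and G6pc have both.

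Within 1 kb of a start, 5 of 20 member peaks rose and 1 fell, against 19.7% and 4.59% of all such peaks. Beyond 1 kb 13 of 77 rose and 13 fell, against 14.8% and 25.4% of all such peaks. The peak nearest to the Slc37a4 start was the highest of the 8, with a mean of 733 normalized reads over all libraries, and none of its libraries fell into the range of the next gene. After it came Fbp1 with 449, Mdh1 with 382, Pck1 with 319, Got1 with 307, G6pc with 213, Ldha with 212 and Pcx with 150 normalized reads. The Pcx peak lies at the downstream one of its annotated starts, and the peaks at the upstream start were not ranked. From Fbp1 down, each gene's range over the 12 libraries overlapped that of its neighbour in this order. Below Fbp1 the order held in neither preparation alone: in frozen livers it was Pck1 with a mean of 418, Mdh1 with 380, Got1 with 365, Ldha with 281, G6pc with 271 and Pcx with 154 normalized reads. In fresh livers it was Mdh1 with 385, Got1 with 249.8, Pck1 with 221, G6pc with 155, Pcx with 146 and Ldha with 143 normalized reads.

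Among these 8 start peaks, those of Pck1 and Ldha passed the test. The Pck1 peak (chr2:173152922-173153122, centred 51 bp before the start) had 473, 447 and 456 normalized reads in frozen livers of fasted mice A, B and C, against 411, 382 and 336 in frozen livers of fed mice. In fresh livers it had 239, 230 and 268 normalized reads in fasted mice, against 226, 194 and 170 in fed mice. Fasted libraries were above fed libraries within each preparation, without overlap, and fed and fasted libraries overlapped only across preparations. Mouse means were 352 ± 12.1 normalized reads in fasted and 287 ± 32.9 in fed mice (SD, n = 3 each), a log2 difference of 0.31 ± 0.09 (SE; limma adjusted p = 0.0224). The call was lost without fasted mouse A (adjusted p = 0.065), fed mouse B (0.0676) or fed mouse C (0.0661), and with scaling to peaks near starts (log2 difference 0.18, adjusted p = 0.172).

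At the Ldha start (chr7:46845697-46845897) frozen livers had 300.3, 329 and 316 normalized reads in fasted mice A, B and C, against 239, 250.1 and 252 in fed mice. Fresh livers had 170, 164 and 133 normalized reads in fasted mice, against 145, 118 and 128 in fed mice. Frozen fasted libraries were all above frozen fed ones, whereas the fresh groups overlapped through fasted mouse C and fed mouse A. The log2 difference of the mouse means was 0.30 ± 0.07 (limma adjusted p = 0.0132). It was not called without fasted mouse A (adjusted p = 0.0519), without fed mouse B (0.0518) or with scaling to peaks near starts (0.104).

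The other 6 start peaks did not pass the limma test. Their log2 differences were 0.18 ± 0.09 at Pcx (adjusted p = 0.13), 0.17 ± 0.08 at G6pc (0.133) and 0.15 ± 0.07 at Mdh1 (0.13). Without fasted mouse B the G6pc start peak was called (log2 difference 0.24, adjusted p = 0.0386). At Pcx another peak lies just as near to the same start, 52 bp before it where the named one lies 52 bp after it, and they share 97 bp; the one with the higher mean was taken as the start peak. The other peak averaged 147 ± 11.9 normalized reads in fasted and 121 ± 3.71 in fed mice (SD, n = 3 each) and was called, with a log2 difference of 0.27 ± 0.09 (limma adjusted p = 0.0457). That call was lost in 9 of 12 alternatives, among them without any 1 mouse (adjusted p between 0.0516 and 0.146), with scaling to peaks near starts (0.275) and after quantile normalization (0.0567). At the upstream Pcx start, the peaks 265 and 71 bp before it were not called on the mouse means. The first was called higher within fresh livers without fasted mouse C (log2 difference 0.32, limma adjusted p = 0.0138). The second was called lower within frozen livers with scaling to peaks near starts (-0.22, 0.0416) and after quantile normalization (-0.17, 0.049). At Got1 the log2 difference was 0.12 ± 0.08 (limma adjusted p = 0.26) and at Slc37a4 0.05 ± 0.06 (0.565), with both turning below 0 when scaled to peaks near starts. Fbp1 had 448 ± 31.6 normalized reads in fasted and 450 ± 26.6 in fed mice (SD, n = 3 each), and its log2 difference of -0.01 ± 0.07 took either sign between alternatives. The summed start peaks of the 9 hepatocyte markers moved with the groups too: they ran from 3041 to 3463 normalized reads in frozen fasted and from 2728 to 2840 in frozen fed livers. In fresh livers they ran from 2331 to 2518 in fasted and from 2145 to 2212 in fed mice. The part of this general shift in the results at the 8 genes was not tested.

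**Figure D2:**
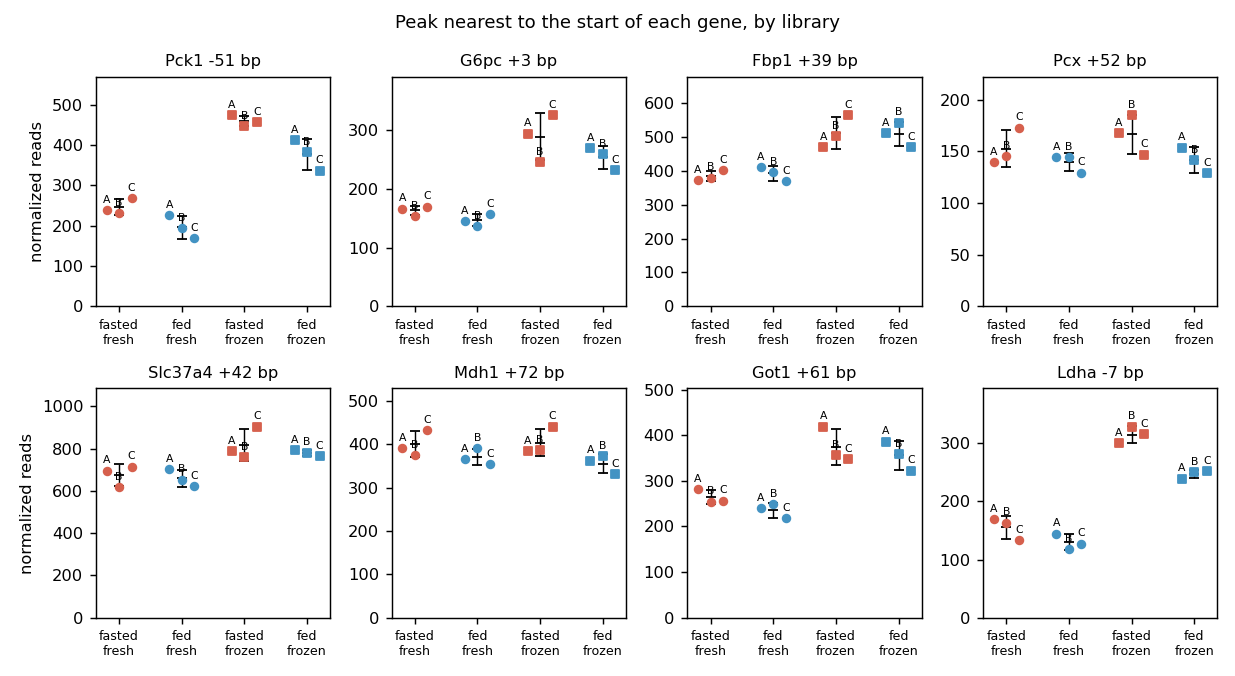
Normalized reads (y axis, from 0) at the peak nearest to each gene's start, one point per library with its mouse letter, in fasted fresh, fed fresh, fasted frozen and fed frozen livers; bars give mean ± SD of 3 libraries. At Pck1 the frozen fasted livers reach 473 normalized reads and the fresh fed livers stay at or below 226, while Mdh1 stays between 331 and 441 in all 4 groups.

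Pcx, the entry enzyme, had the most peaks and changes in both directions. It has 2 annotated starts. All 9 called peaks were centred between them, 7 of them in intron 2 of the long transcript. The Pcx peak of lowest p, at chr19:4558363-4558563 and 35856 bp before the downstream start, had 82.8, 97.6 and 95.7 normalized reads in frozen livers of fasted mice A, B and C, against 128, 180 and 147 in frozen livers of fed mice. In fresh livers it had 72.6, 89.9 and 65.5 normalized reads in fasted mice, against 130, 142 and 129 in fed mice. No fasted library reached the lowest fed library. Mouse means were 84.0 ± 8.55 normalized reads in fasted and 143 ± 16.7 in fed mice (SD, n = 3 each), a log2 difference of -0.76 ± 0.12 (limma adjusted p = 0.00151).

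In the same intron a site 24405 bp before the downstream start (chr19:4569814-4570014) went the other way. It had mouse means of 84.9 ± 20.6 normalized reads in fasted and 38.2 ± 2.5 in fed mice, and all 6 fasted libraries were above all 6 fed libraries. The log2 difference was 1.12 ± 0.18 (limma adjusted p = 0.00181), and a neighbour that shares 96 bp of its window rose by 1.02 ± 0.22. Nearer to the upstream start, 24328 bp past it, the groups were again apart, with 74.3 ± 18.9 normalized reads in fasted and 146 ± 15.4 in fed mice (log2 difference -1.01 ± 0.18, limma adjusted p = 0.00248). At the downstream start itself, the peak 361 bp before it averaged 134 ± 6.21 normalized reads in fasted and 98.2 ± 9.7 in fed mice, a log2 difference of 0.47 ± 0.12 (adjusted p = 0.0119).

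Of the shuttle enzymes, Mdh1, the cytosolic malate dehydrogenase, held the lowest log2 difference of all 97 peaks, and Got1, the cytosolic aspartate aminotransferase, held no call. The Mdh1 peak at chr11:21561413-21561613, in intron 5 and 10421 bp after the start, had 34.6, 43.6 and 17.8 normalized reads in frozen livers of fasted mice A, B and C, against 112, 98.8 and 81.5 in frozen livers of fed mice. In fresh livers it had 59.0, 82.1 and 28.3 normalized reads in fasted mice, against 158, 177 and 139 in fed mice. Within each preparation the groups were apart, and across preparations fresh fasted mouse B was just above the lowest frozen fed library. Mouse means were 44.2 ± 20 normalized reads in fasted and 128 ± 15 in fed mice (SD, n = 3 each), a log2 difference of -1.62 ± 0.29 (limma adjusted p = 0.00296) that every alternative kept as a call. The overlapping peak 10569 bp past the start had a log2 difference of -1.61 ± 0.47, and lost its call without fed mouse A (adjusted p = 0.0984) or B (0.0926). A further Mdh1 peak, 21973 bp past the start, was lower in all 6 fasted libraries, at 99.3 ± 2.93 normalized reads in fasted and 131 ± 15.4 in fed mice (log2 difference -0.39 ± 0.11, adjusted p = 0.0192). It lost the call without fed mouse B (adjusted p = 0.0711). At Got1 the peak of lowest p, in intron 2 and 12161 bp past the start, averaged 82 ± 16.7 normalized reads in fasted and 107 ± 7.32 in fed mice (log2 difference -0.40 ± 0.15, limma adjusted p = 0.066). It was called lower with the mouse as a replicate block and an estimated correlation (adjusted p = 0.0284), with scaling to peaks near starts (0.0282) and without fasted mouse B (0.0222). Its libraries overlapped, with 62.2 to 108 normalized reads in fasted and 96.5 to 124 in fed mice.

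Around Pck1, the changes that passed on the mouse means lay at the start and downstream of the gene. The peak 221 bp before the start, which shares 31 bp with the start peak, was called higher within frozen livers, a call kept in 6 of 11 alternatives. On the mouse means that peak was called higher only with the mouse as a replicate block and an estimated correlation (limma adjusted p = 0.0276), without fed mouse A (0.0413) or without fasted mouse B (0.0379). Further upstream, the peak 4848 bp before the start was called higher within fresh livers, a call kept in 6 of 11 alternatives. On the mouse means it was called higher only with the mouse as a replicate block and an estimated correlation (log2 difference 0.50, limma adjusted p = 0.0126) or without fasted mouse B (0.67, 0.0134). The peak at chr2:173163605-173163805, 10632 bp past the start and intergenic, had 67.3, 64.5 and 80.1 normalized reads in frozen livers of fasted mice A, B and C, against 36.9, 49.4 and 29.8 in fed mice. In fresh livers it had 82.8, 83.6 and 88.2 normalized reads in fasted mice, against 53.3, 47.8 and 36.8 in fed mice. All fasted libraries were above all fed libraries, and mouse means of 77.8 ± 5.54 in fasted and 42.3 ± 8.01 in fed mice gave a log2 difference of 0.88 ± 0.17 (limma adjusted p = 0.00434). The remaining Pck1 peak that rose on the mouse means lies just beyond the transcript end and is described with the peaks there.

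Fbp1 went the other way at 5 of its 14 peaks, and none of them rose. In intron 1, at chr13:62878160-62878360 and 10022 bp past the start, frozen livers of fasted mice A, B and C had 61.0, 71.5 and 60.1 normalized reads, against 117, 132 and 117 in fed mice. Fresh livers had 73.3, 101 and 57.6 normalized reads in fasted mice, against 152, 187 and 128 in fed mice. The highest fasted library stayed below the lowest fed library. Mouse means were 70.7 ± 14 normalized reads in fasted and 139 ± 19 in fed mice (SD, n = 3 each), a log2 difference of -0.97 ± 0.15 (limma adjusted p = 0.00148). Groups were also apart 5394 bp before the start (-0.50 ± 0.09, adjusted p = 0.00239) and 859 bp before it (-0.66 ± 0.18, adjusted p = 0.0201), where the second lost its call without fasted mouse A or any 1 fed mouse (adjusted p between 0.0562 and 0.0634). The intron 1 peak 6765 bp past the start fell by 0.58 ± 0.14 on the log2 scale (adjusted p = 0.0132).

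G6pc, the last enzyme of the pathway, had calls on both sides of the gene. Downstream, at chr11:101379392-101379592 and 11776 bp past the start, frozen livers of fasted mice A, B and C had 139, 133 and 160.2 normalized reads, against 90.5, 102 and 75.4 in fed mice. Fresh livers had 68.5, 80.5 and 98.3 normalized reads in fasted mice, against 53.3, 54.4 and 47.3 in fed mice. The groups were apart within each preparation and overlapped across preparations. Mouse means were 113 ± 13.9 normalized reads in fasted and 70.5 ± 8.52 in fed mice (SD, n = 3 each), a log2 difference of 0.67 ± 0.14 (limma adjusted p = 0.00527). Upstream, 3015 bp before the start, the mouse means were 103 ± 10.7 in fasted and 171 ± 38.4 in fed mice, with a log2 difference of -0.69 ± 0.16 (adjusted p = 0.00937).

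Slc37a4, the partner transporter of G6pc, rose at its second peak, in the 5' UTR at chr9:44398200-44398400 and 124 bp past an internal start. Frozen livers had 262, 173 and 260.4 normalized reads in fasted mice A, B and C, against 206, 151 and 127 in fed mice. Fresh livers had 223, 175 and 236 normalized reads in fasted mice, against 180.2, 139 and 138 in fed mice. Fasted mouse B was below fed mouse A in both preparations, so the groups overlapped. The mouse means were 222 ± 41.5 normalized reads in fasted and 157 ± 31.9 in fed mice (log2 difference 0.49 ± 0.16, limma adjusted p = 0.0385). This call was lost in 5 alternatives, among them without fasted mouse A (adjusted p = 0.124), fasted mouse C (0.0786), fed mouse B (0.127) or fed mouse C (0.127).

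Ldha had the most rises, and 4 of its 7 lay close together between 6657 and 7498 bp before the start. The peak at chr7:46839047-46839247 had 153, 177 and 162 normalized reads in frozen livers of fasted mice A, B and C, against 102, 89.2 and 86.7 in fed mice. In fresh livers it had 174, 156 and 124 normalized reads in fasted mice, against 117, 99.6 and 87.4 in fed mice. Every fasted library was above every fed library, with mouse means of 158 ± 12.7 in fasted and 97.1 ± 11.6 in fed mice and a log2 difference of 0.70 ± 0.11 (limma adjusted p = 0.0017). The others of this cluster overlap one another and share reads: at 7498 bp the log2 difference was 0.70 ± 0.15, at 7304 bp 0.98 ± 0.19 and at 7166 bp 0.46 ± 0.12. The first 2 were called in every alternative, and the last was not called without fed mouse A (adjusted p = 0.0533) or with scaling to peaks near starts (0.052).

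**Figure D3:**
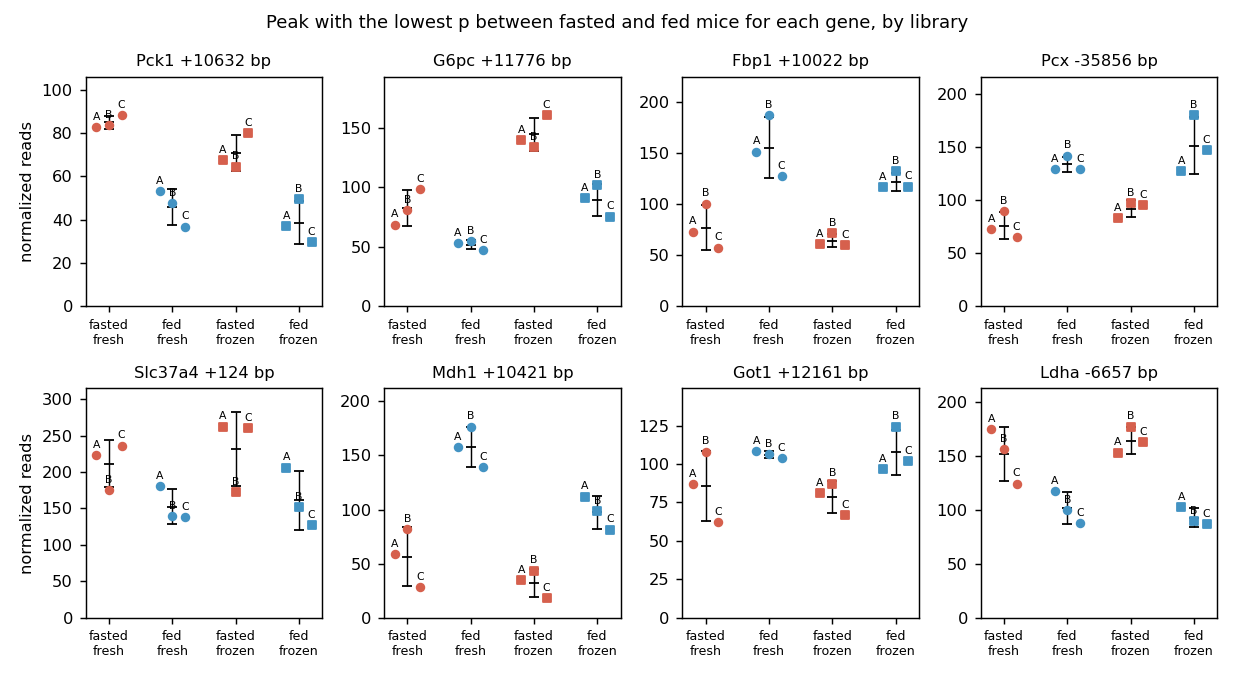
Normalized reads (y axis, from 0) at each gene's peak with the lowest p between fasted and fed mice, one point per library with its mouse letter, with mean ± SD of 3 libraries; titles give the gene and the distance to its start. Fasted livers lie above fed livers of the same preparation at Pck1, G6pc and Ldha and below them at Fbp1, Pcx and Mdh1, while the groups overlap at Slc37a4 and, in fresh livers, at Got1.

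At the transcript ends of Pck1 and G6pc the fed mice differed widely from one another, and 1 fed mouse was low at both genes. All 6 member peaks annotated as transcript ends belong to these 2 genes, and none passed the test on the mouse means of fasted and fed mice. They were singled out after their values had been seen. At chr2:173159928-173160128, 6955 bp past the Pck1 start, frozen livers had 463, 334 and 501 normalized reads in fasted mice A, B and C, against 371, 226 and 108 in fed mice. Fresh livers had 345, 275 and 406 normalized reads in fasted mice, against 362, 194 and 75.6 in fed mice. Fed mouse A was within the fasted range and fed mouse C was the lowest, in both of its libraries. On the mouse means the log2 difference was 0.99 ± 0.39 (limma adjusted p = 0.0748), and this was called with the mouse as a replicate block and an estimated correlation (adjusted p = 0.0102) or without fed mouse A (0.0128). Within frozen livers the peak was called, alone among the 6, with a log2 difference of 1.03 ± 0.32 (limma adjusted p = 0.0313). That call was lost without fasted mouse A (adjusted p = 0.0861), fasted mouse C (0.0521), fed mouse B (0.0822) or fed mouse C (0.0754) and with scaling to peaks near starts (0.0645).

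At the G6pc end fed mouse C was again the lowest. At chr11:101378583-101378783, 10967 bp past the start, frozen livers had 107, 85.4 and 127 normalized reads in fasted mice A, B and C, against 137, 92.4 and 20.2 in fed mice. Fresh livers had 87.5, 86.8 and 108 normalized reads in fasted mice, against 111, 85.0 and 17.7 in fed mice. Here fed mouse C alone was low, and fed mouse A was above every fasted library of its preparation. Over the 6 peaks the log2 range among the 3 fed mice ran from 1.58 to 2.64, with a median of 1.92, against a median of 0.48 among the 3 fasted mice. Over all 946 transcript end peaks of the series those medians were 0.23 among fed and 0.28 among fasted mice. Each of the 6 had a range among fed mice above that of at least 99.9% of all peaks. Ranked by the log2 difference of fed mouse A minus fed mouse C, the 6 stood in places 1, 4, 5, 6, 9 and 10 of the 946. The 6 were singled out after these same values had been seen, so the ranges and places describe them and test nothing. The other places among the first 12 went to Gm5424, Igfbp1, Tat, with 3 peaks, and Angptl4. Tat encodes tyrosine aminotransferase, Igfbp1 an IGF binding protein and Angptl4 a lipase inhibitor. Why the fed mice differed at these peaks was not tested.

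Just beyond the Pck1 end, at chr2:173160364-173160564, the same order of fed mice was found together with a call. Frozen livers had 335, 248 and 349 normalized reads in fasted mice A, B and C, against 210, 124 and 47.3 in fed mice. Fresh livers had 236, 191 and 279 normalized reads in fasted mice, against 196, 98.3 and 51.3 in fed mice. The log2 difference was 1.36 ± 0.39 (limma adjusted p = 0.024), the highest of the 97 peaks, and 0.83 ± 0.24 without fed mouse C (adjusted p = 0.0335). It was not called without fasted mouse A (adjusted p = 0.0653) or fed mouse B (0.0709). Without fed mouse C the log2 difference at the 6 transcript end peaks lay between -0.15 and 0.45, none of them called. The G6pc peak 11430 bp past the start had 337 normalized reads in the frozen and 252 in the fresh library of fed mouse C, close to the lowest fasted libraries with 354 and 258.

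**Figure D4:**
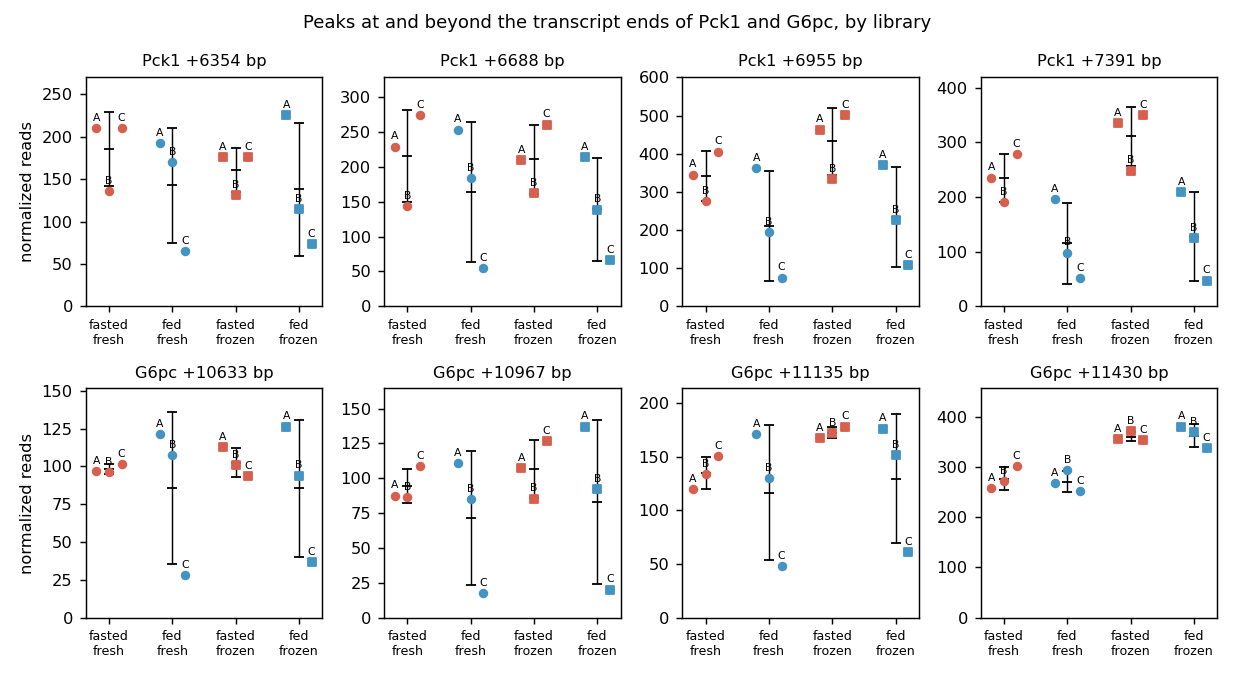
Normalized reads (y axis, from 0) at 4 peaks at and beyond the transcript end of Pck1 (top) and of G6pc (bottom), one point per library with its mouse letter, with mean ± SD of 3 libraries. Fed mouse C lies far below the other libraries of its preparation at the first 7 peaks, for example at 20.2 and 17.7 normalized reads 10967 bp past the G6pc start, and close to them at the last.

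Within frozen livers 18 member peaks rose and 12 fell with fasting, where 12.8% of all peaks rose and 15% fell, 27.8% together. In fresh livers 12 rose and 12 fell, against 11.4% and 16.1% of all peaks, 27.6% together. Scaled to peaks near starts these counts became 7 and 16 in frozen and 8 and 18 in fresh livers. Of all 52530 peaks 3453 rose and 10547 fell in frozen livers at that scaling, and 2962 rose and 11823 fell in fresh livers. Of the 97 peaks 9 rose in both preparations, 10 fell in both, and none was called in opposite directions. How many of all peaks were called in both preparations was not counted. For frozen livers the authors' deposited table called 28 member peaks at an adjusted p under 0.05, 16 of them up with fasting and 12 down, and 29.5% of all peaks. For fresh livers the authors' deposited table called 19, 9 of them up and 10 down, and 23.1% of all peaks. The test of the difference between preparations (limma interaction) called no member peak and 0% of all peaks, with 1 member peak and 2702 of all peaks at an unadjusted p under 0.05. With the mouse as a replicate block it called 187 of all peaks in one direction and 208 in the other, and again no member.

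Between frozen and fresh livers the called peaks were mostly higher in frozen tissue. Freezing gave 38 higher and 10 lower values among the 97 peaks (limma over 12 libraries with feeding state in the model), against 28.7% of all peaks in the upward and 32.8% in the downward direction, 61.5% together. The median log2 difference, frozen minus fresh, was 0.19 for the member peaks and -0.05 for all peaks. With the mouse as a replicate block 49 were higher and 17 lower, against 16895 and 19910 of all 52530 peaks. Scaled to peaks near starts 35 were higher and 16 lower, against 12655 and 20180 of all peaks. Frozen and fresh libraries did not overlap at 23 peaks that were higher and 1 that was lower, against 15.2% and 11.7% of all peaks. Within 1 kb of a start 13 of 20 were higher and 1 lower, against 37.6% and 27.7% of all such peaks. Set beside the comparison of fasted with fed mice, which uses the same libraries, 9 peaks were higher both with fasting and with freezing, and 1 was higher with fasting and lower with freezing. Another 3 were lower in both, and 1 was lower with fasting and higher with freezing. How many of all peaks were called in both comparisons was not counted.

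The start peaks of Ldha, Pck1 and G6pc differed most between preparations among the 8. At Ldha the 6 frozen libraries ran from 239 to 329 normalized reads with a median of 276, against 118 to 170 with a median of 139 in the 6 fresh libraries. At Pck1 frozen libraries ran from 336 to 473 with a median of 429, against 170 to 268 with a median of 228 in fresh libraries. At G6pc frozen libraries ran from 231 to 325 with a median of 264, against 137 to 170 with a median of 155 in fresh libraries. In none of these 3 did the preparations overlap. The log2 differences, frozen minus fresh, were 0.97 ± 0.07 at Ldha (limma adjusted p = 7.86e-09), 0.92 ± 0.07 at Pck1 (1.09e-08) and 0.80 ± 0.07 at G6pc (7.91e-08). The Pck1 peak 221 bp before the start, which overlaps the start peak, was called higher in frozen livers too. Its log2 difference lay between 0.79 and 0.96 in the 12 alternatives, all of them calls. Among the other start peaks: those of Got1 (0.54 ± 0.06) and Fbp1 (0.39 ± 0.05) were also higher in frozen livers in all alternatives. Slc37a4 was higher by 0.26 ± 0.05 as deposited but had -0.09 after quantile normalization. The start peaks of Pcx (0.07 ± 0.08) and Mdh1 (-0.02 ± 0.05) were not called, that of Mdh1 turning to a lower call of -0.19 after quantile normalization. Overlapping peaks at the same starts were called. The Pcx peak 52 bp before the start had a log2 difference of 0.40 ± 0.08 (limma adjusted p = 0.000235), between 0.33 and 0.44 in the 12 alternatives, all of them calls. At the upstream Pcx start, the peak 265 bp before it was called higher too, except after quantile normalization (limma adjusted p = 0.141). The peak 71 bp before that start was called, as lower, only after quantile normalization (log2 difference -0.12, limma adjusted p = 0.0287). The Mdh1 peak 97 bp before the start, which shares 32 bp with the start peak, was lower in frozen livers by a log2 difference of -0.12 ± 0.04 (limma adjusted p = 0.031). It lost the call without fasted mouse A or any 1 fed mouse (adjusted p between 0.0608 and 0.106).

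By gene, 9 of the 15 G6pc peaks, 8 of the 22 Pcx peaks and 6 of the 8 Got1 peaks were higher in frozen livers, and Mdh1 had 3 lower and none higher. The largest difference was in intron 1 of Fbp1, 4730 bp past the start, at chr13:62883452-62883652. Frozen libraries there ran from 142 to 190 normalized reads with a median of 161, against 69.9 to 85.0 with a median of 76.1 in fresh libraries, a log2 difference of 1.05 ± 0.09 (limma adjusted p = 3.62e-08). The Mdh1 intron 5 peak that fell with fasting was also lower in frozen livers, with a median of 62.5 normalized reads in frozen and 111 in fresh libraries (log2 difference -0.73 ± 0.22, adjusted p = 0.0095).

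**Figure D5:**
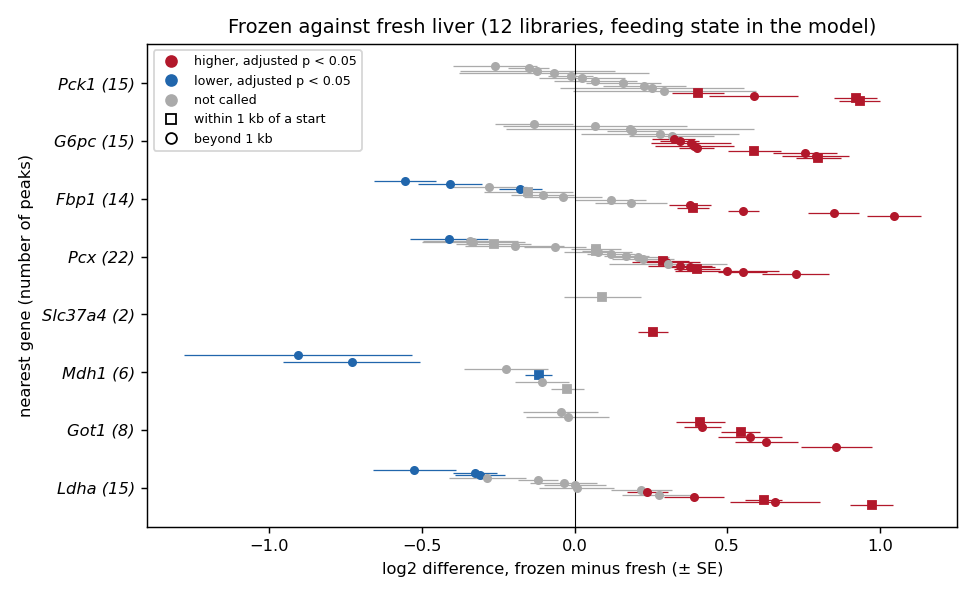
Log2 difference between frozen and fresh livers (x axis, ± SE) at each of the 97 peaks, grouped by nearest gene, with squares for peaks within 1 kb of a start and circles for the others. Red peaks were higher and blue peaks lower in frozen livers with an adjusted p under 0.05; the start peaks of Pck1, G6pc and Ldha lie between 0.80 and 0.97, and only the called Mdh1 peaks lie all left of 0.

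Across the 12 libraries, the start peaks most like that of Pck1 among 18514 others were those of Cox14 (Pearson r = 0.985), Rps29 (0.983) and Chordc1 (0.982). For G6pc they were those of Mcoln1 (0.989), Usp36 (0.986) and Fbxo3 (0.986). These values describe 12 libraries from 6 mice that share the frozen against fresh difference, and all 6 genes had higher start peaks in frozen livers, with log2 differences between 0.41 and 0.91.

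The other genes of the pathway were counted in 5 lists, at the scaling as deposited, to be read against the 16.5% of all peaks that rose and the 18.1% that fell with fasting. Of 36 peaks at 7 enzymes shared with glycolysis, 7 rose and 6 fell with fasting (limma adjusted p under 0.05), and of 17 peaks at 7 other isoforms, such as Pck2 and G6pc3, 4 rose and 2 fell. At 14 genes of substrate entry and shuttles 17 of 95 peaks rose and 10 fell. There 6 of the 11 peaks of Gpt2, the mitochondrial alanine aminotransferase, rose and none fell, with the highest log2 difference of 1.66 ± 0.21 at a site 15.2 kb before the start. At the 6 opposing enzymes 2 of 20 peaks rose and 5 fell, and 3 of the 4 peaks of Pklr, liver pyruvate kinase, were among the falls, the lowest with a log2 difference of -1.72 ± 0.21. At 8 regulators 16 of 89 peaks rose and 17 fell. All 8 peaks of Cebpb, a transcription factor induced by cAMP, rose, and so did 6 of the 17 peaks of Ppargc1a, a coactivator of gluconeogenic genes, the highest with a log2 difference of 1.66 ± 0.21. The falls were led by Nr3c1, the glucocorticoid receptor, with 13 of 33 peaks lower and none higher, and Hnf4a, a hepatocyte transcription factor, had 2 of 7 lower and none higher. Against fresh livers, with 28.7% of all peaks called upward and 32.8% downward, frozen livers had 11 higher and 5 lower peaks at the shared enzymes, 2 and 7 at the isoforms, 44 and 15 at substrate entry and shuttles, 7 and 9 at the opposing enzymes and 36 and 21 at the regulators.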

How the data were processed

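Per the labels' protocols, each ATAC-seq library used some 25000 nuclei on beads, a 30 min transposition at 37 °C and 12 cycles of PCR. Tools listed in the submitters' processing notes, with no step given for any, are DESeq2, HOMER, SAMtools and BWA 0.7.5a-r405, and the build is mm10. Peak calling, the handling of duplicates and multiply matching reads, and any shift for the transposase are steps not given in the sources used here. Multiply matching reads would matter most at repeats.

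The authors deposited a table of 52530 peaks whose signal columns hold reads per peak in 12 libraries, divided by 1 factor per library. All values of a column were whole multiples of 1 step (100% within 0.001 steps), from which the depths come: 3692152 to 14506057 reads in peaks and 63 to 208 reads in the median peak of the 8 genes, a counting error of 6.93% to 12.6% for that peak. The deposited table also gives log2 fold changes and adjusted p-values (padj columns) of fasted against fed livers, per the file headers, and a peak score, which was not used. No count model was run.

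Tests were run in limma 3.58.1 (R 4.3.3) on log2(normalized reads + 1), with a trended prior, two-sided, with Benjamini-Hochberg adjustment over all peaks and a threshold of 0.05, so fold changes understate those of low peaks. No peak was filtered. The code was tested on simulated data. Fasted and fed mice were compared on the mean of each mouse's frozen and fresh log2 values (3 against 3), and within each preparation. Frozen and fresh livers were compared over 12 libraries with feeding state in the model, and the difference between preparations by an interaction term. The pairing of the libraries of a mouse rests on the column letters: deviations from group means of same-letter libraries correlated at 0.329 to 0.64 (all 6 pairs over 0.1), those of other letters at 0.0213 or less. Per-library values are given, in the text or a figure, for each gene's start peak and its peak of lowest p between fasted and fed mice. Some other peaks are given by their values, and the transcript ends were chosen after their values were seen. The 8 genes and all lists were chosen with earlier results of these data known. Alternatives were pseudocounts of 0.5 and 5, leaving out the lowest 25% of peaks, scaling to peaks within 1 kb of starts, quantile normalization, the mouse as a block, only peaks within 25 kb and leaving out each mouse. Of the 97 windows 30 overlap a neighbour and share reads. Promoter sequences come from RefSeq (all 8 genes matched, 12 windows); sequences of distal peaks are not given here. Figures were drawn with matplotlib 3.10.9.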

Additional observations from a re-analysis of the deposited data

How the results depend on the processing

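Of the 32 calls between fasted and fed mice 15 held in every alternative that refitted the peak, of 24 within fresh livers 10, of 30 within frozen livers 10, and of 48 between frozen and fresh livers 36. Such shares were not counted for all peaks. The 1 call with the opposite sign anywhere was the Slc37a4 start peak between preparations after quantile normalization. Leaving out a mouse gave 9 to 21 higher and 7 to 17 lower peaks in fasted mice, 5 to 12 and 6 to 14 within fresh livers, 9 to 16 and 6 to 12 within frozen livers, and 37 to 42 higher and 7 to 12 lower in frozen than fresh livers. For all 52530 peaks these ranges were 4939 to 8053 and 6477 to 9619 in fasted mice, and 3165 to 5887 and 6087 to 8755 within fresh livers. They were 3866 to 6075 and 4845 to 7990 within frozen livers, and 13989 to 15264 higher and 15541 to 17503 lower in frozen than fresh livers. Within fresh livers 5 rose and 6 fell without fasted mouse A, 7 and 6 without fed mouse B, 7 and 8 without fed mouse C, and 12 and 7 without fed mouse A. Within frozen livers the same omissions gave 9 and 8, 9 and 6, 9 and 10, and 15 and 7. Over all 52530 peaks they gave 3165 and 6648, 3660 and 6087, 4931 and 6952, and 3897 and 6283 within fresh livers. Within frozen livers they gave 4116 and 6177, 3866 and 4845, 5409 and 6083, and 4413 and 5458 of all peaks. Scaling to peaks near starts left 9 higher peaks between fasted and fed mice and 7 within frozen livers, and 16 lower peaks in frozen livers. The replicate block gave 17 lower peaks in frozen livers. The block with an estimated correlation of 0.33 between the libraries of a mouse gave 24 higher and 16 lower peaks in fasted mice, against 9832 and 10504 of all peaks. The block moved no other count by over 1.5 times. Pseudocounts changed no count of calls.

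Start peaks with differences near 0 changed sign. Scaled to peaks near starts, the log2 difference of fasted minus fed was -0.075 at Slc37a4 and -0.0047 at Got1 over both preparations, -0.085 at Slc37a4 and -0.011 at Mdh1 within fresh livers, and -0.12 at Fbp1, -0.065 at Slc37a4 and -0.057 at Got1 within frozen livers; frozen minus fresh at Pcx was -0.0018. After quantile normalization it was -0.00072 at Slc37a4 over both preparations, and -0.084 at Fbp1, -0.032 at Slc37a4 and -0.0085 at Got1 within frozen livers; frozen minus fresh at Slc37a4 was -0.088. The interaction after quantile normalization was -0.073 at G6pc, -0.023 at Fbp1, -0.063 at Slc37a4 and -0.028 at Ldha. Leaving out a mouse, fasted minus fed ran from -0.060 to 0.033 at Fbp1 and -0.0078 to 0.11 at Slc37a4 over both preparations, -0.068 to 0.011 and -0.0067 to 0.098 within fresh livers, and -0.063 to 0.069, -0.0093 to 0.12 and, at Got1, -0.011 to 0.13 within frozen livers. The interaction then ran from -0.079 to 0.030 at Pck1, -0.097 to 0.087 at G6pc, -0.0067 to 0.073 at Fbp1, -0.0041 to 0.28 at Pcx, -0.0045 to 0.076 at Slc37a4 and -0.015 to 0.19 at Ldha.

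The cause of these changes was not tested. The precision is limited by 3 mice a group and 63 to 208 reads in the median member peak, and neighbouring windows that share reads are not separate evidence.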
